A study of Mus musculus with 18 samples.

Results

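Col19a1 (NCBI gene 12823) encodes the alpha chain of type XIX collagen. It is 1 gene of the 22657 rows in a table of gene expression in cultured mouse testes, and it was chosen by its measured value, the largest in most of the samples. Values were in FPKM, which are sequenced fragments counted per kilobase of transcript and scaled to the number of fragments in the sample. Col19a1 had the highest FPKM of all genes in 13 of 18 samples and the second highest in the other 5, so "the most abundant transcript" held for the 13 samples only. The level and the rank chose the gene and are given as a description. The rule of choice did not use differences between groups, which were tested, but earlier results of these data were known when the gene was chosen.

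The testes came from ICR mice. In the B groups the mice had received busulfan, an alkylating anti-cancer drug, once at 40 μg/g body weight when they were 3 weeks old, and the mice of the A groups were age-matched and untreated. The testes were removed 2 weeks later and all were cultured for 48 h in medium with serum and with alginate oligosaccharides (AOS) at 0, 10 or 50 μg/mL, which gave A0, A10, A50, B0, BA10 and BA50 with 3 samples each. The whole cultured tissue was sequenced, the AOS reached it only in culture, and the methods describe several testes per treatment in an experiment repeated 3 times. Labels and methods do not tie a sample to a repeat or a mouse, so p-values measure the spread between these samples, part of which may be technical.

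Type XIX collagen belongs to the FACIT collagens, which carry short triple-helical stretches with interruptions and sit on or near other matrix networks instead of forming fibrils of their own. It is a minor collagen of basement membrane zones. In mice it is best known from developing muscle, above all the lower oesophageal sphincter, and from interneurons, where a fragment of the protein takes part in the formation of inhibitory synapses.

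The locus is shown first because the value of a gene depends on which fragments can be assigned to it. In GENCODE M21 (GRCm38), Col19a1 lies on the minus strand at chr1:24261890-24587472. Its annotated transcripts are a protein coding one of 48 exons and 3336 bases, a protein coding one of 51 exons and 4266 bases and a processed transcript of 40 exons and 5441 bases. Of the 31-base windows of these transcripts (3306, 4236 and 5411), 0 occurred in a transcript of another gene. The snoRNA gene Gm26418, on the same strand at chr1:24548841-24548977, lies inside Col19a1 and had no row in the table.

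The RefSeq promoter window of Col19a1 (GRCm38.p6, chr1:24587388-24587687, minus strand) is printed as the sequence around the RefSeq start of the gene. The 250 bases before that start are in lower case and the 50 bases after it in capitals. In GENCODE M21 the protein coding transcript of 51 exons starts at 24587472, among the bases in lower case. That of 48 exons starts at 24587411, among the capitals, and the processed transcript at 24452745, outside the window.
Col19a1 promoter: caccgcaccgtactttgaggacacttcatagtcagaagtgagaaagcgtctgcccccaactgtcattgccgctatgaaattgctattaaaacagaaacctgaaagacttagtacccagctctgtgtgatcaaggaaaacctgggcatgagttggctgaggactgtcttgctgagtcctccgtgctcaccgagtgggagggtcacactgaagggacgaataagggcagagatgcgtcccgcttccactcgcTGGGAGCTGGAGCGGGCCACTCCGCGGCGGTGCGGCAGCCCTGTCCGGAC
The window had 56.3% G and C, against a median of 52.7% over 32851 RefSeq promoters of the same length, of which 60.6% had a lower share. Motifs of common promoter elements were searched on both strands. The TATA box letters TATAAA had 0 matches in the Col19a1 window and occurred in 13.6% of all windows. The letters CCAAT had 0 matches and occurred in 37.4%, and the GC box letters GGGCGG had 0 matches and occurred in 35.7%.

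Beyond the start of Col19a1, at chr1:24611535-24616197 and 24063 to 28234 bases away, the same strand carries 7 annotated unprocessed pseudogenes that are copies of mitochondrial genes. Over their aligned bases they were 99.7% to 100% identical to the mRNAs mt-Nd4 (876 bases, Gm28439), mt-Nd4l (294, Gm10222), mt-Nd3 (345, Gm28438), mt-Co3 (783, Gm28437), mt-Atp6 (678, Gm10925), mt-Co2 (681, Gm28661) and mt-Co1 (483, Gm29216). The first 60 bases of mt-Nd3 (chrM:9459-9518, plus strand) and of Gm28438 (chr1:24613060-24613119, minus strand), both from GENCODE M21, show how close the copies are. They differ by T3C, where the mt-Nd3 base comes first, positions count from 1 at the 5′ end and the differing base is in capitals.
mt-Nd3: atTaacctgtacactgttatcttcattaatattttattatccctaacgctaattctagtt
Gm28438: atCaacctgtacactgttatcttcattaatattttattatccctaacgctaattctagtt
The mitochondrially encoded mRNAs are usually among the most abundant polyadenylated RNAs of a tissue, and 0 of the 13 had a row in the table, nor did any of the 7 pseudogenes. Between the annotated Col19a1 transcripts and the mitochondrial mRNAs, BLAST found 0 matches at an E value of 1e-05. The table holds no positions of fragments, and the transcript models and lengths behind the Col19a1 value are not given in the sources used here, so the part of this block of copies in that value was not tested.

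In the untreated testes, Col19a1 was at 4905.26, 5226.37 and 5519.75 FPKM in A0. It was at 5189.39, 5449.97 and 4095 FPKM in A10 and at 4161.89, 4919.78 and 4431.85 FPKM in A50. After busulfan, it was at 5055.27, 5645.05 and 6900.55 FPKM in B0. The value of 6900.55 was the highest of the series, and the lowest, 4095 FPKM, was in A10. Col19a1 was at 6159.22, 5819.11 and 5456.26 FPKM in BA10 and at 5039.07, 4640.46 and 4243.81 FPKM in BA50. From highest to lowest the group means were 5867 ± 942 in B0, 5812 ± 352 in BA10, 5217 ± 307 in A0, 4911 ± 719 in A10, 4641 ± 398 in BA50 and 4505 ± 384 in A50 (SD, n = 3). Neighbours in that order differed by less than the larger of their SDs, except BA10 and A0, whose samples still overlapped, with 5456.26 FPKM in BA10 and 5519.75 FPKM in A0. The highest of the 18 values was 1.69 times the lowest, and Col19a1 alone made up 0.801% to 1.44% of a sample's FPKM sum.

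Within groups the level varied little next to that of other abundant genes. The SD of its log2 values within groups was 0.156. Of 101 genes with a median of at least 500 FPKM, 13 had a lower one, and the median of the 101 was 0.199. A10 replicate 3 stood apart from the other A10 samples over all genes (r of 0.929 and 0.941 with them, against 0.985 between these) and had the lowest Col19a1 value of the series.

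**Figure D1:**
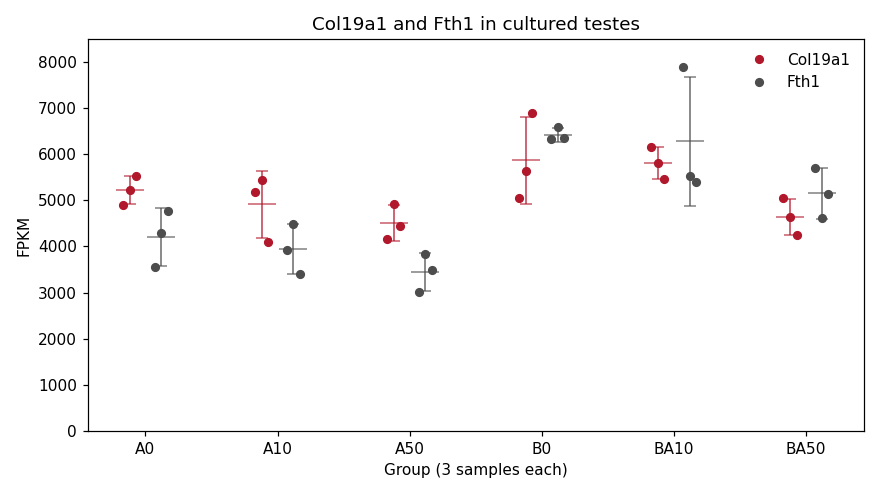
FPKM (vertical axis) of Col19a1 (red) and Fth1 (grey) in each of the 18 samples by group, with points for samples, horizontal lines for means and bars for 1 SD (n = 3). Col19a1 lies between 4095 and 6900.55 in all groups and above Fth1 in every sample of A0, A10 and A50, while the B groups hold samples of either order.

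In every sample the gene nearest to Col19a1 at the top was Fth1, the ferritin heavy chain, which stores iron. Col19a1 was 1.16 to 1.38 times Fth1 in the 9 untreated samples, where it ranked first in 9 of 9. In the 9 busulfan samples the ratio was 0.8, 0.856 and 1.09 in B0, 0.78, 1.05 and 1.01 in BA10 and 0.883, 1.01 and 0.827 in BA50, and Col19a1 ranked first in 4 of 9. The ratios of the untreated and the busulfan samples did not overlap. This is a description, since the rank chose the gene, and the share of other gene pairs that separate in this way was not computed. The median of Fth1 was 3830 FPKM without and 5700 FPKM with busulfan, that of Col19a1 4919.78 and 5456.26 FPKM. Averaged over the AOS concentrations, Fth1 was higher after busulfan by 0.62 on the log2(FPKM + 1) scale (SE 0.10, limma adjusted p = 0.000215) and Col19a1 by 0.15 (SE 0.09, adjusted p = 0.194). Behind them came Eef1a1, a translation elongation factor, with a median of 3060 FPKM, the secreted chaperone Clu with 2750 FPKM and the ferritin light chain Ftl1 with 2470 FPKM.

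The comparisons asked whether AOS in culture, busulfan in the mouse, or their combination moved Col19a1. All 18 samples and 15790 genes were fitted with limma, and a call needed both an adjusted p of 0.001 or less and a log2 change of 1 or more in size. Col19a1 was called in 0 of 10 comparisons and had an unadjusted p under 0.05 in 0 of them.

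With AOS in untreated testes, the Col19a1 samples of A10 and A0 overlapped, as did those of A50 and A0, where 20.1% and 40.8% of all genes had samples that did not overlap. The change was -0.10 at 10 μg/mL (95% interval -0.43 to 0.23, adjusted p = 0.738) and -0.21 at 50 μg/mL (-0.54 to 0.12, adjusted p = 0.45). Exact two-sided permutation tests gave p = 0.6 and p = 0.2, where the smallest that 3 against 3 samples allow is 0.1. Of all genes tested, 0.0% were called at either concentration, while 15.2% and 15.6% had an unadjusted p under 0.05.

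With AOS after busulfan, BA10 differed from B0 by less than 0.01 on the log2 scale (interval -0.33 to 0.33, adjusted p = 0.998, exact permutation p = 1), a comparison in which 0.0% of genes were called, 5.05% had an unadjusted p under 0.05 and 11.4% had samples that did not overlap. The 3 BA50 samples lay below the 3 B0 samples, the closest being 5039.07 against 5055.27 FPKM. The change was -0.33 (SE 0.15, 95% interval -0.66 to 0.00), which is 0.796 times the B0 level. It had an adjusted p of 0.206 and an exact permutation p of 0.1, or 0.267 adjusted over the 8 exact tests made, so it did not pass. Among all genes tested, 24.6% had BA50 and B0 samples that did not overlap, 24.3% had an unadjusted p under 0.05 and 0.0% were called. The AOS changes with and without busulfan were set against each other directly. They differed by 0.09 at 10 μg/mL (SE 0.22, adjusted p = 0.971) and by -0.12 at 50 μg/mL (SE 0.22, adjusted p = 0.984). In these differences 0.0% of genes were called, and 3.97% and 6.28% had an unadjusted p under 0.05.

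After busulfan without AOS, Col19a1 in B0 and A0 overlapped, with a change of 0.16 (SE 0.15, interval -0.17 to 0.49, adjusted p = 0.613, exact permutation p = 0.4). At 10 μg/mL AOS the change was 0.25 (SE 0.15, interval -0.08 to 0.58, adjusted p = 0.278), and the samples did not overlap by a margin of 5456.26 in BA10 against 5449.97 FPKM in A10, as was the case for 31.2% of genes. At 50 μg/mL it was 0.04 (SE 0.15, interval -0.29 to 0.37, adjusted p = 0.871), and the samples overlapped. For all genes, samples did not overlap in 33.2% without AOS and in 41.7% at 50 μg/mL. Averaged over AOS, the interval of the busulfan change was 0.973 to 1.27 times the untreated level. The exact permutation test within AOS concentrations (8000 arrangements) gave p = 0.043, or 0.267 adjusted over the 8 exact tests, and did not pass. With busulfan, 2.54% of genes were called without AOS, 3.01% at 10 μg/mL, 3.39% at 50 μg/mL and 3.61% in the average. An unadjusted p under 0.05 was reached by 24.9%, 32.9%, 32.3% and 47.4%, and an adjusted p under 0.05 by 13.8% without AOS and 38.1% in the average.

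**Figure D2:**
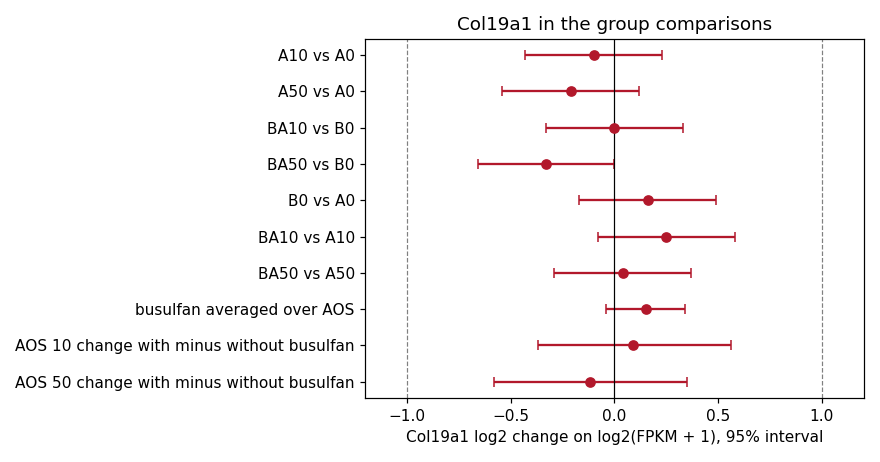
Col19a1 log2 change on the log2(FPKM + 1) scale (horizontal axis) in the 10 comparisons, with 95% intervals from limma, and dashed lines at a change of 1 in either direction. All 10 intervals lie inside the dashed lines and the interval of BA50 against B0, -0.66 to 0.00, ends at no change.

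The other collagens of the testis were far below Col19a1, whatever their class. On the FPKM scale, which is per length, the next collagen was Col3a1, a fibrillar collagen of interstitial tissue, with a median of 346 FPKM (64.25 to 531.16). Col19a1 exceeded it by a median of 16.7 times (9.5 to 72.2). Col1a2 and Col1a1, the chains of type I collagen, had medians of 212 and 130 FPKM. Col4a1 and Col4a2, the main chains of basement membranes, had medians of 170 and 102 FPKM. Among the FACIT collagens the next was Col22a1, found at tissue junctions, with 16.2 FPKM (12.07 to 28.16), followed by Col12a1 with 6.2 FPKM, Col20a1 with 3.08 FPKM and Col14a1 with 2.43 FPKM. The type IX genes were near 0, with medians of 0.095 FPKM for Col9a1, 0.05 FPKM for Col9a2 and 0.52 FPKM for Col9a3.

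No other collagen gene was called either. Of the 5 FACIT, 9 fibrillar, 8 basement membrane and 9 other collagens that passed the filter of 1 FPKM in at least 3 samples, and of the 14 genes of collagen processing, 0 were called in any comparison. The share of all genes called was 0.0% in the AOS comparisons and 2.54% to 3.61% in the busulfan comparisons, so a count of 0 in lists of this size lies near the background. In B0 against A0, 2 fibrillar, 2 other and 0 FACIT, basement membrane or processing genes had an unadjusted limma p under 0.05, as did 24.9% of all genes. The median log2 changes in B0 against A0 were 0.21 for FACIT, -0.35 for fibrillar and 0.20 for basement membrane collagens and 0.17 for collagen processing, against -0.04 over all genes. At the looser limit of an adjusted p under 0.05 in the busulfan average, which 13.3% of all genes passed as higher and 24.8% as lower, Col22a1 was higher by 0.38 (SE 0.14, adjusted p = 0.0452), 1 of 5 FACIT collagens. Of the basement membrane collagens, 3 of 8 were higher, namely Col18a1 by 0.41, Col4a2 by 0.35 and Col4a5 by 0.34. Col5a3 was higher and Col2a1, the cartilage collagen, was lower by 0.64 (SE 0.09, adjusted p = 3.9e-05) among the fibrillar collagens. Of the other collagens, Col13a1 was higher by 0.36 (adjusted p = 0.0226) and Col28a1 lower by 0.32 (adjusted p = 0.00203). Of the processing genes, Bmp1, a protease that trims procollagens, was higher by 0.38 (SE 0.13, adjusted p = 0.0273).

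The mean log2 level of these gene lists was set against Col19a1 across the 18 samples, which share their groups and their scaling. Pearson's r was -0.20 for the other FACIT collagens, and -0.61 for deviations from the group means, -0.55 within the untreated and -0.03 within the busulfan samples. For fibrillar collagens r was 0.11 and -0.10 for deviations, for basement membrane collagens 0.30 and -0.06, for other collagens 0.20 and -0.02, and for collagen processing 0.18 and -0.23. So the FACIT list ran against Col19a1 more for deviations than over all samples. The value of -0.03 within the busulfan samples kept the differences between their groups, and deviations were not computed for these samples alone. Its 5 genes differed in sign for deviations, with -0.60 for Col22a1, -0.54 for Col12a1, -0.43 for Col20a1, -0.31 for Col14a1 and 0.42 for Col16a1. P4hb, a subunit of the prolyl hydroxylase that collagen chains need to fold, had a median of 215 FPKM, and Serpinh1, the collagen chaperone, 114 FPKM. With Col19a1 P4hb had an r of -0.09 and of -0.57 for deviations from the group means, and Serpinh1 of 0.15 and -0.15. Of the other prolyl hydroxylase subunits, P4ha1 and P4ha2 had -0.61 and -0.58 for deviations, but P4ha3 had 0.10. Col18a1 had an r of 0.60 and Col2a1 of -0.75.

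Genes next to Col19a1 on chromosome 1 were at ordinary levels. GENCODE M21 lists 23 other genes within 500000 bases, of which 7 had a row in the table. Col9a1, 9206 bases away on the plus strand, ranged from 0.03 to 0.32 FPKM. Lmbrd1, 91158 bases away on the other side and coding for a lysosomal cobalamin transporter, had a median of 16.2 FPKM. Fam135a had 18.8, Sdhaf4 21.8, Smap1 70.3, B3gat2 0.79 and Adgrb3 0.085 FPKM. Between the start of Col19a1 and Lmbrd1 the annotation holds only pseudogenes, none of which had a row.

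**Figure D3:**
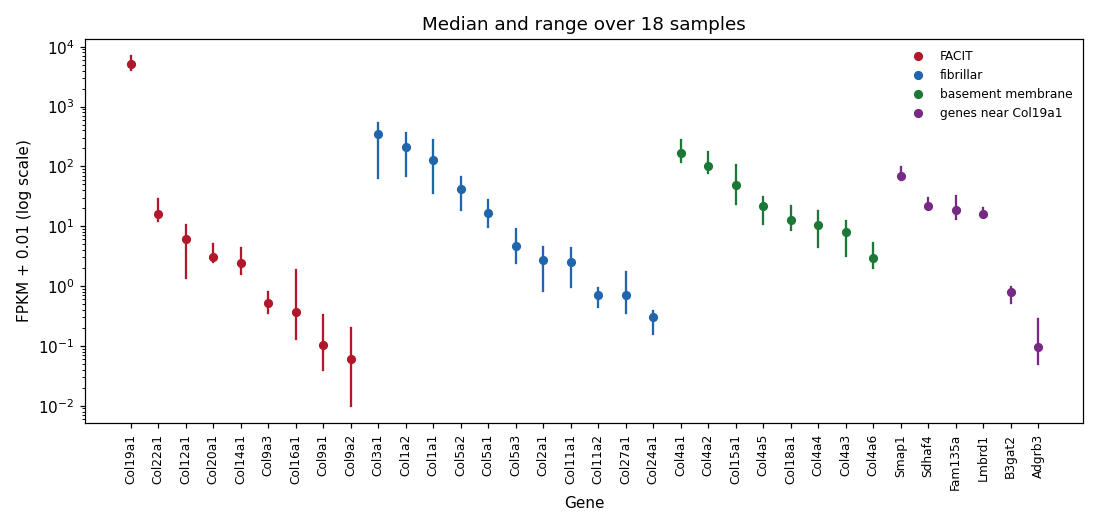
Median (points) and range (lines) of FPKM + 0.01 over 18 samples on a log scale, for FACIT (red), fibrillar (blue) and basement membrane collagens (green) and genes near Col19a1 (purple). Col19a1 stands at a median of 5122.33 FPKM, the next FACIT collagen Col22a1 at 16.2, the highest fibrillar collagen Col3a1 at 346 and the highest neighbour Smap1 at 70.3.

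Genes of skeletal muscle and of neurons were mostly under the filter, and which cells of the testis gave the Col19a1 value was not tested. Of 13 skeletal muscle genes 1 passed the filter, Mylpf, a myosin light chain, with a median of 2.74 FPKM. Myod1, the master regulator of muscle fate, ranged from 0 to 0.02 FPKM, and Ckm, muscle creatine kinase, from 0 to 0.18 FPKM. Of 10 neuron genes 2 passed, Npy, a neuropeptide, with a median of 8.24 FPKM and Slc17a7, a glutamate transporter, with 1.69 FPKM. Gad1 and Gad2, which make the transmitter GABA, ranged from 0.09 to 0.57 and from 0.02 to 0.15 FPKM, and Sst, an interneuron peptide, from 0 to 0.06 FPKM. The testis itself was well marked, with Ldhc, the lactate dehydrogenase of germ cells, at a median of 997 FPKM and Insl3, a Leydig cell hormone, at 408 FPKM.

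Genes of spermatogonia and spermatocytes fell after busulfan, which gave a wide range against which to set Col19a1. In B0 against A0, 9 of 19 spermatocyte genes and 7 of 13 spermatogonium genes were called lower, against 2.49% of all genes, with median changes of -1.43 and -1.08. Sycp3, a component of the synaptonemal complex, fell by 3.28 on the log2 scale (SE 0.17, adjusted p = 9.13e-09). Of 20 spermatid genes 0 were called and 0 had an unadjusted limma p under 0.05, which 24.9% of all genes had. Genes of adipocytes (4 of 7) and of simple epithelia (3 of 8) were called higher, against 0.0507% of all genes. All these lists, those of germ cells included, were chosen with earlier results of these data known, so the counts are a description. Some of the genes were uneven between B0 samples, as with Car3 at 34.5 ± 42.2 and Krt8 at 33.9 ± 21.7 FPKM (SD, n = 3). The mean levels of the adipocyte and epithelium lists had an r of 0.33 and 0.27 with Col19a1 over the 18 samples. It was 0.11 and 0.09 without the 2 samples whose Col19a1 values were farthest from the median. For deviations from the group means it was -0.50 and -0.35. The part of these lists in the Col19a1 values was not tested. In tissue RNA, fewer cells of a type and less RNA per cell cannot be told apart. The mean log2 level of the spermatocyte genes was 4.69 to 5.37 in untreated and 2.92 to 3.77 in busulfan samples, with no overlap, while Col19a1 ranged from 4095 to 5519.75 and from 4243.81 to 6900.55 FPKM and overlapped.

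Among the cell type lists, the one with the highest r with Col19a1 over all 18 samples was that of Leydig cells, the androgen-producing cells between the tubules. With the mean of 11 Leydig cell genes, Pearson's r was 0.69 and Spearman's rho 0.63. The r was 0.60 without B0 replicate 3 and A10 replicate 3, whose Col19a1 values were farthest from the median. It was 0.53 within the 9 untreated and 0.66 within the 9 busulfan samples, and 0.53 for deviations from the group means. On these other measures Leydig cell genes did not lead throughout, since Sertoli cell genes had 0.58 within the untreated samples and 0.57 for deviations, and endothelial cell genes 0.64 within the untreated samples. Mylpf, the 1 skeletal muscle gene tested, had 0.77 within the busulfan samples and 0.54 over all samples. The mean log2 level of the Leydig cell list was 4.75 to 5.29 in untreated and 5.16 to 5.96 in busulfan samples. Among its genes, r was 0.69 for Hsd3b1 and 0.58 for Cyp11a1, enzymes of steroid synthesis, and 0.66 for Nr5a1, the regulator of steroidogenic genes. It was 0.62 for Star, which brings cholesterol into mitochondria, but 0.17 for Insl3, 0.23 for Cyp17a1 and -0.26 for Hsd3b6. In the busulfan average 3 of the 11 Leydig cell genes were higher at a limma adjusted p under 0.05, as were 13.3% of all genes. Star was 1 of them, higher by 0.75 (SE 0.12, adjusted p = 0.000205). In B0 against A0, 0 of the 11 were called and 2 had an unadjusted p under 0.05, against 2.54% and 24.9% of all genes.

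With spermatocyte genes (19), r was -0.51 over all samples, -0.56 within the untreated and -0.58 within the busulfan samples, and -0.34 without the 2 farthest samples. Ldhc had -0.79 and Syce3, of the synaptonemal complex, -0.80, while Sycp3 had -0.40 and Sycp1 -0.33. With spermatid genes (20), r was -0.33 over all samples, -0.16 without the 2 farthest samples, and -0.65 and -0.51 within untreated and busulfan samples. Endothelial cell genes (9) had 0.57, 0.46 within the busulfan samples, and 0.19 for deviations from the group means. Sertoli cell genes (14), of the supporting cells of the tubule, had 0.44, 0.05 without the 2 farthest samples and 0.38 within the busulfan samples. Peritubular and smooth muscle genes (11) had -0.18, and -0.56 for deviations and -0.47 within the untreated samples. Macrophage genes (11) had 0.38, and 0.19 for deviations. Spermatogonium genes (13) had -0.38, though 0.41 within the untreated and -0.57 within the busulfan samples. Nuclear-encoded subunits of the respiratory chain (22), the partners of the mitochondrially encoded proteins, had -0.40, and 0.01 for deviations from the group means. These values describe 18 samples that share their groups, their FPKM scaling and, within a sample, 1 library.

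**Figure D4:**
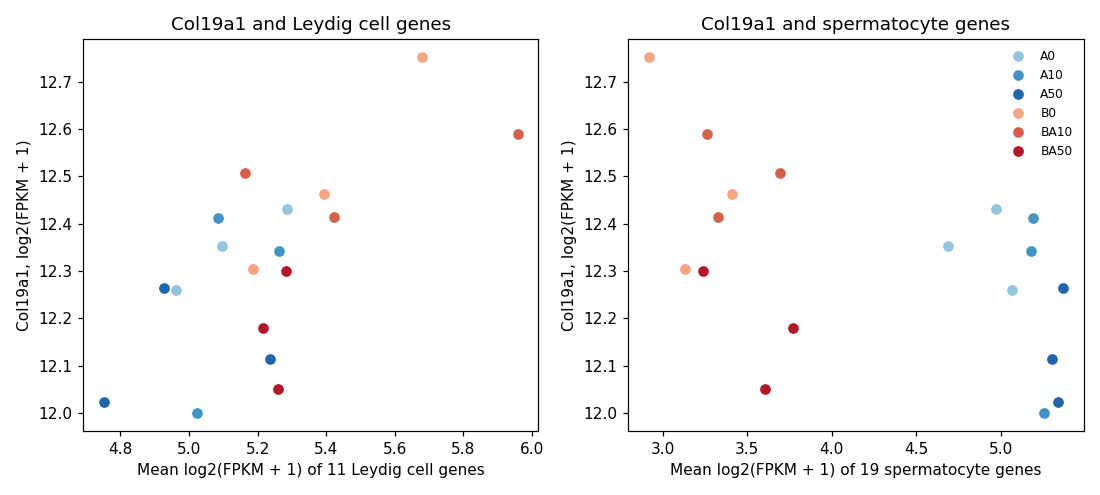
Col19a1 as log2(FPKM + 1) (vertical axes) against the mean log2(FPKM + 1) of 11 Leydig cell genes (left) and of 19 spermatocyte genes (right), 1 point per sample, coloured by group. The left points climb together (r = 0.69), whereas the right points form an untreated cloud at 4.69 to 5.37 and a busulfan cloud at 2.92 to 3.77 that cover overlapping Col19a1 values.

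The genes whose profile was most like that of Col19a1 over the 18 samples were Asb13, a SOCS box protein, with an r of 0.92, and Thoc2, of the complex that exports mRNA, also with 0.92. Tank, an adaptor of NF-kappa-B signalling, had 0.90, Hibch, of valine breakdown, 0.90, and Ggps1, of isoprenoid synthesis, 0.89. Over the 15789 single genes compared, r had a median of 0.07 and quartiles of -0.37 and 0.47. Their medians were 2.15, 15.4, 22.5, 11.6 and 16.9 FPKM, so genes with a like profile lay orders of magnitude below Col19a1 in level. Without the 2 farthest samples these r were 0.83 to 0.92. By deviations from the group means, which leave out differences between groups, Snx19 was most alike (r = 0.96), followed by Zfp148, Fancm, Amd1 and Ube4a with 0.92 to 0.93. Snx19 had an r of -0.12 when group differences were kept. The most opposed were Fam117b (-0.94), Ddx50 (-0.93), Smg6, Hspb11 and Gipr (-0.92 each). The r of deviations was not computed again without the 2 farthest samples. With group differences kept and these samples left out, r was 0.79 for Zfp148, 0.71 for Ube4a, 0.43 for Amd1, 0.15 for Fancm and -0.15 for Snx19. For the opposed genes it was then -0.68 (Smg6) to -0.03 (Ddx50). Within the busulfan samples Ddx50 had 0.32 and the other opposed genes -0.69 to -0.31.

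Genes that varied with Col19a1 inside groups had longer transcripts and a lower G and C share than genes that varied against it. The 421 genes with an r of deviations above 0.8 had a median longest transcript of 4402 bases and 46.2% G and C. The 167 genes below -0.8 had 2368 bases and 51.9%, and all genes compared had 3161 bases and 49.5%. With group differences kept, the 186 genes above 0.8 had 3960 bases and 42.5%, and the 298 below -0.8 had 2120 bases and 53.8%. A transcript was found for 91.1% to 97.4% of each set. This comparison of length and composition was chosen after the values were seen, genes are not independent replicates, and its part in the Col19a1 profile was not tested. It was not repeated without the samples whose Col19a1 values were farthest from the median.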

How the data were processed

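Poly(A) RNA of 18 cultured testis samples (6 groups of 3) was sequenced. The authors deposited 1 table of FPKM values. Their methods describe alignment to reference genes with SOAPaligner and RPKM, while the submitters' processing notes name HISAT, Bowtie2, RSEM and the build GRCm38.p5. How fragments that match several places were shared is not given in the sources used here, and neither are the transcript lengths used. The files give no counts, so depth is unknown. FPKM summed to 463970 to 511274 per sample, and 0 pairs of samples were identical. Of 20811 NCBI gene numbers, 20656 had a symbol. The AOS concentrations are those of the labels.

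Genes at 1 FPKM or more in at least 3 samples (15790) were fitted as log2(FPKM + 1) with 1 coefficient per group in limma 3.58.1 (R 4.3.3, trended prior, 12 residual degrees of freedom) with Benjamini-Hochberg adjustment over all genes. A fold change is on that scale, which understates the change of low genes. Single values were tested by exact two-sided permutation (SciPy 1.17.1). Scripts were tested on simulated data. Correlations used log2(FPKM + 1). Named genes were Col19a1, the 5 highest genes, listed collagen, processing and cell type genes, neighbours within 500000 bases and the 5 most alike genes. Col19a1 and all lists were chosen with earlier results of these data known. Alternatives covered pseudocount, filter, scaling, normalization, samples fitted, the replicate block and each sample left out. Same-numbered samples of BA50 and B0 had positively correlated deviations in all 3 pairs (0.562, 0.422 and 0.138). Those of BA50 and A50 did too, at lower values (0.0369, 0.204 and 0.13). In A10 and A0 all 3 pairs were negative (-0.112, -0.113 and -0.221), in B0 and A0 they were -0.362, -0.429 and 0.172, and the other comparisons had mixed signs. Any such pairing is read from the data.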

Additional observations from a re-analysis of the deposited data

How the results depend on the processing

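Of 183 alternative values of the 10 Col19a1 changes, 162 kept direction and side of the threshold, 17 reversed, 4 moved to 0, and 0 were called (lowest adjusted p 0.102). In this balanced design the replicate block, the fit of only the groups compared and the prior without trend cannot change the estimate. Nor can the filters or the looser limit. The direction under these settings was fixed in advance, and the count of 162 includes them. Quantile normalization, which by construction gives the top gene of every sample 1 value, gave log2 changes of 0 for A10 and A50 against A0, BA50 against B0 and the AOS 50 difference, 0.09 for BA10 against B0, -0.17 for B0 against A0, -0.09 for BA10 against A10, -0.17 for BA50 against A50 and -0.14 for the busulfan average. With all samples scaled to 1 sum, with or without Col19a1 in it, BA10 against B0 was 0.02 and BA50 against A50 -0.04. Leaving out each sample in turn gave -0.18 to 0.03 for A10 and -0.28 to -0.16 for A50 against A0, -0.10 to 0.12 for BA10 and -0.43 to -0.21 for BA50 against B0, 0.04 to 0.26 for B0 against A0, 0.13 to 0.33 for BA10 against A10, -0.02 to 0.11 for BA50 against A50, 0.11 to 0.19 for the busulfan average, and -0.03 to 0.22 and -0.22 to 0.01 for the AOS 10 and AOS 50 differences. Signs turned without A10 replicate 3 (A10 against A0 0.03, AOS 10 difference -0.03), B0 replicate 1 (AOS 10 difference -0.01), B0 replicate 3 (BA10 against B0 0.12, AOS 50 difference 0.01), BA10 replicate 3 (BA10 against B0 0.04), A50 replicate 1 (BA50 against A50 -0.01) and BA50 replicate 1 (-0.02). With the replicate number as a block, BA50 against B0 was -0.33 (SE 0.16, adjusted p = 0.228), and the block changed no call of Col19a1. Genes called in BA50 against B0 numbered 0, 15 at an adjusted p under 0.05 with no limit on the change, and 0 to 1 with a sample left out (1 without B0 replicate 1). In B0 against A0 they numbered 401, 58 when only these 2 groups were fitted, 189 with a stricter filter (mean of 5 FPKM), 2173 at the looser limit and 295 to 417 with a sample left out. In the busulfan average they numbered 570, 856 with a pseudocount of 0.1, 320 with the stricter filter, 6018 at the looser limit and 539 to 601 with a sample left out. Apart from quantile normalization and fewer samples or genes, the cause of these shifts was not tested. Without counts, depth sets an unknown limit, and the number of samples limits the precision.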
